A study of Mus musculus with 16 samples.

Results

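Mouse bone-marrow derived macrophages labelled naive were compared before and 6 h after interferon-gamma, in 4 of the 16 arrays of the series. Those 4 arrays are both naive 6 h arrays and both naive 0 h arrays of the same array set, and all 19938 genes with a feature of their own on the array were taken. The study also stimulated cells labelled pretreated, whose titles name interferon, and it holds naive and pretreated arrays at 0 h and 3 h in a second array set, with 2 arrays for each group in each set. RNA was hybridised to Affymetrix mouse gene arrays of a single colour, and the values are log2 intensities as deposited.

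All macrophages, naive and pretreated, came from H3.3-HA knock-in mice, in which the histone variant H3.3 carries an epitope tag, and were grown in L-cell conditioned medium, which supplies the growth factor Csf1. Cells without the knock-in and unstimulated cells kept for 6 h were not analysed here, so an effect of interferon and an effect of 6 h of further culture cannot be told apart. The labels name the stimulus as interferon-gamma with no dose, and they do not say how long the pretreatment lasted. They also do not say whether the 2 arrays of a group came from separate cultures or mice, so each p-value below sets a difference against the spread between arrays of a group, and that spread may be technical. The number of arrays limits the precision.

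Interferon-gamma binds a receptor made of Ifngr1 and Ifngr2, which signals through the kinases Jak1 and Jak2. The signal reaches gamma-activated sequences (GAS) in DNA and switches on factors such as Irf1, which in turn bind interferon-stimulated response elements (ISRE). In macrophages the programme is known for antigen presentation, chemokines that attract T cells, GTPases that attack vacuolar pathogens, and antimicrobial enzymes.

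A gene was counted as changed at a limma p-value, adjusted by the Benjamini-Hochberg method over all 19938 genes, under 0.05, and each change below is a log2 difference of group means with its standard error. By this rule 1492 genes rose (7.48%) and 2161 fell (10.8%), 18.3% in all, against a median change of -0.01 over all genes. Of these, 643 rose and 667 fell by at least 1 on the log2 scale, which is 2-fold. The large changes were mostly rises, with 180 genes up and 113 down by at least 4-fold, and 27 up and 2 down by at least 16-fold. Both 6 h arrays lay above both 0 h arrays in 24.9% of genes and below both in 31.3%. The count of 3653 changed genes was 2323 without replicate 2 at 0 h and 2217 without replicate 1 at 6 h. With 1 of the 4 arrays left out in turn, 1750 of the 3653 genes kept their call each time, and all 3653 kept their direction.

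The 4 arrays paired by time, with a correlation over genes of 0.993 between the 0 h arrays, 0.992 between the 6 h arrays and 0.958 to 0.968 across the times, which describes the arrays and is no test. The 10 macrophage markers averaged 12.71 and 12.87 on the 0 h arrays and 12.79 and 12.73 on the 6 h arrays. The lowest of them stood at 11.22 at 0 h. Of these markers 2 rose, Fcgr1 and Spi1, and 1 fell, Cd14, from 11.94 and 12.05 at 0 h to 11.54 and 10.71 at 6 h. The others, among them Adgre1, Csf1r and Lyz2, did not pass the test. Markers of T, B and NK cells, granulocytes, stromal and endothelial cells and others lay between 4.85 and 7.86 at 0 h, so a level in that range does not show expression. Of the 30 markers of those types, 0 passed the limma test and 1 had an unadjusted p under 0.05. The endothelial marker Kdr went from 7.71 and 6.64 at 0 h to 10.26 and 7.92 at 6 h, above that range, without passing the test. Of the genes that rose, 305 had a 0 h mean no higher than 7.86, and of those that fell, 589 had such a 6 h mean. A log2 difference that starts or ends there is one of measured values and may understate the change. Among genes named below this holds for the rises of Ak4, C1ra, C4b, Ccl8, Cfb, Ch25h, Ciita, Clec9a, Cxcl11, Cxcl9, Gbp4, Gch1, Gpr18, Hcar2, Hspa1a, Iigp1, Il12rb1, Il18rap, Mmp25, Mx2, Nos2, Ppargc1b, Ptges, Ptgs2, Rasgrp1, Slamf8, Socs1, Tnfsf10, Upp1 and Vcam1, and for the falls of Abcd2, Bub1, Chaf1b, Chek2, Cx3cr1, Cxcr3, Gpr183, Irf4, Kif20a, Neil3, Osm, Rrm2, S1pr1 and Slc2a3. Both levels lay there for C1s1, Cd163, Ptger2 and Xcr1. A mean under 6.5, in the lower stretch of that range, is called not above background below.

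The chemokines that draw T cells through the receptor Cxcr3 stood out. Cxcl9 went from 6.80 and 6.29 at 0 h to 13.64 and 13.70 at 6 h, a measured rise of 7.12 ± 0.17 (limma adjusted p = 2.36e-10) from 0 h levels within the range of absent markers. Cxcl10 rose by 4.75 ± 0.28, from 9.34 and 8.82 at 0 h to 13.82 and 13.85 at 6 h, and Cxcl11 by 4.61 ± 0.33, from 7.09 and 7.11 at 0 h to 12.33 and 11.09 at 6 h. For all 3 ligands the 6 h arrays lay far above both 0 h arrays. Their receptor gene Cxcr3 fell by 1.31 ± 0.19. Other chemokines rose as well, Ccl5 by 2.80 ± 0.40, from 10.08 and 9.49 at 0 h to 13.12 and 12.05 at 6 h. Ccl2 rose by 2.78 ± 0.78, but this call was lost without any 1 of the 4 arrays (limma adjusted p = 0.0746 to 0.138). Ccl8 went from 4.54 and 5.20 at 0 h to 9.34 and 9.07 at 6 h, so its 0 h level was not above background. Of those that resting macrophages make, Ccl6 fell by 1.06 ± 0.11 and Ccl9 fell by 1.11 ± 0.14. The neutrophil chemokines did not pass the test, with differences of -0.02 ± 0.18 for Cxcl1 and 0.48 ± 0.43 for Cxcl2. Of 22 chemokines measured, 7 rose and 2 fell (4 without replicate 1 at 0 h).

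**Figure D1:**
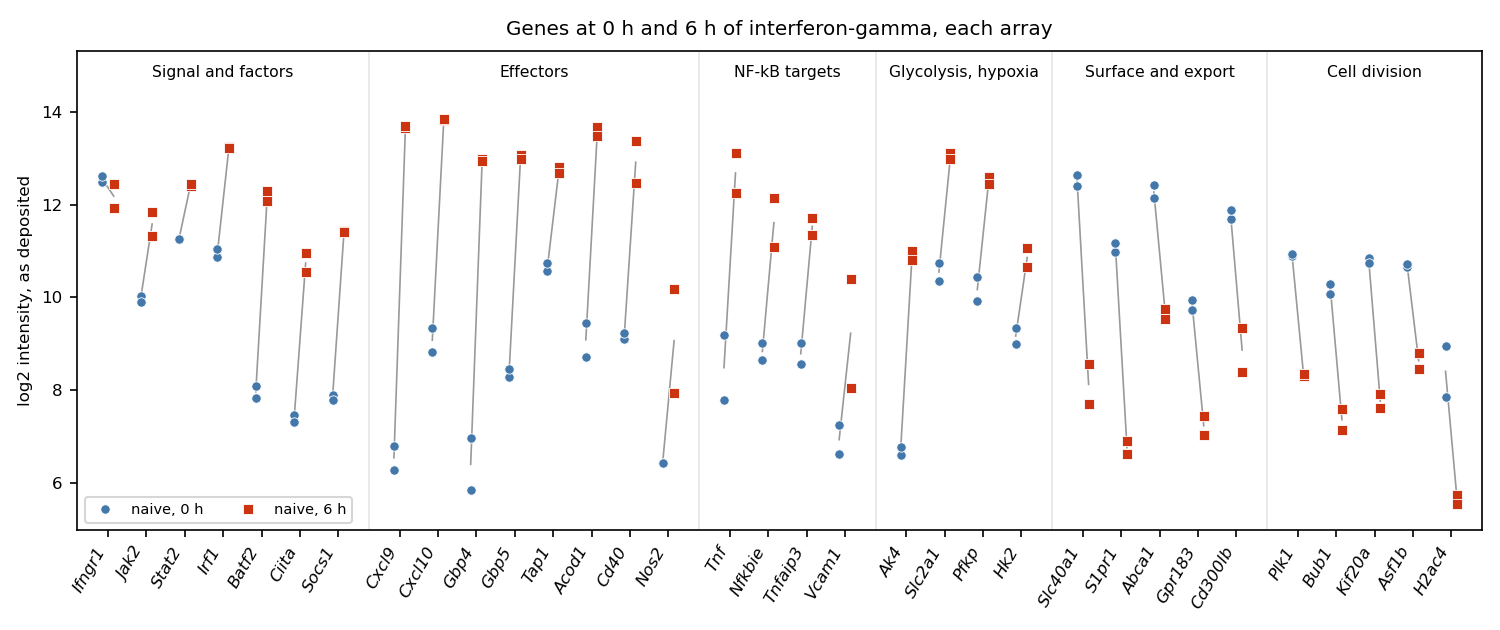
Log2 intensity of named genes on each array, with circles for the 2 naive 0 h arrays and squares for the 2 naive 6 h arrays, grouped by role along the x axis. Lines join the means. Cxcl9 moved from 6.80 and 6.29 at 0 h to 13.64 and 13.70 at 6 h, while S1pr1 moved from 10.98 and 11.17 at 0 h to 6.92 and 6.63 at 6 h.

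Transcription factors of the pathway rose, 10 of 13 measured. Irf1, an early factor of the response, went from 10.88 and 11.05 at 0 h to 13.23 and 13.22 at 6 h, a rise of 2.26 ± 0.15 (limma adjusted p = 9.21e-07). Batf2, a partner of Irf1 in macrophages, rose by 4.23 ± 0.18, from 7.84 and 8.09 at 0 h to 12.30 and 12.08 at 6 h. The 2 master regulators of antigen presentation rose too: Nlrc5, which drives class I genes, by 2.26 ± 0.14, and Ciita, which drives class II genes, by 3.35 ± 0.54. In each of these 4 genes both 6 h arrays lay above both 0 h arrays by more than 2. Irf7 rose by 1.28 ± 0.20 and Irf8, a lineage factor of macrophages, by 1.09 ± 0.15. Irf9, the DNA-binding part of the type I interferon complex, had a difference of -0.17 ± 0.10 and did not pass the test. Irf4 alone fell by 1.33 ± 0.30, a call lost without replicate 2 at 0 h (limma adjusted p = 0.0626) or replicate 1 at 6 h (limma adjusted p = 0.0941). 

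The receptor genes did not pass the test. Ifngr1 had a difference of -0.37 ± 0.14 (limma adjusted p = 0.106) and Ifngr2 of -0.12 ± 0.14, and the kinase Jak1 of -0.05 ± 0.10. Jak2 rose by 1.61 ± 0.18, from 10.04 and 9.90 at 0 h to 11.83 and 11.33 at 6 h. Stat2 rose by 1.16 ± 0.11 and Stat3 by 0.96 ± 0.11. Of the 13 receptor, kinase and STAT genes measured 4 rose. Of 17 inhibitors of the pathway 7 rose and 2 fell. Socs1, which blocks Jak kinases, went from 7.91 and 7.80 at 0 h to 11.42 and 11.41 at 6 h, and Socs3 went from 8.49 and 8.49 at 0 h to 11.98 and 11.51 at 6 h, rises of 3.56 ± 0.15 and 3.26 ± 0.21. The phosphatase Ptpn2, which dampens Jak signalling, rose by 1.71 ± 0.18. Usp18, which dampens type I interferon receptors, rose by 1.51 ± 0.34 (call lost without replicate 2 at 0 h, limma adjusted p = 0.0559 and replicate 1 at 6 h, limma adjusted p = 0.0748). Pias3 fell by 0.89 ± 0.20 (call lost without replicate 1 at 6 h, limma adjusted p = 0.0767). Socs6 fell by 1.19 ± 0.26 (call lost without replicate 1 at 0 h, limma adjusted p = 0.0625 and replicate 1 at 6 h, limma adjusted p = 0.0665).

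The guanylate-binding, immunity-related and Mx GTPases, the first of which coat and break the vacuoles of intracellular microbes, all rose: the 12 measured members passed the test, with a median change of 3.59. Iigp1 went from 7.72 and 7.63 at 0 h to 13.03 and 13.26 at 6 h, a rise of 5.47 ± 0.27. Gbp5 rose by 4.64 ± 0.35, from 8.29 and 8.47 at 0 h to 13.07 and 12.98 at 6 h. Gbp4 went from 6.97 and 5.85 at 0 h to 12.99 and 12.94 at 6 h, with a 0 h mean under the background limit and 0 h arrays that stood apart, a log2 difference of 6.56 ± 0.42. The smallest rise of the group was that of Mx2, 1.73 ± 0.45, which lost its call without either 0 h array or without replicate 1 at 6 h (limma adjusted p = 0.0652, 0.0892 and 0.192). Some relatives, among them Gbp2, Gbp6, Igtp and Irgm2, share their features with other genes and were not counted.

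Windows around the start sites of 6 genes are shown because they carry the letters these pathways are known to read, each from 250 bases before to 50 bases after the start, from RefSeq on the mouse build GRCm38.p6. Irf1 and Tnfaip3 have 2 windows each, and the window with the most matches was taken. The search was for GAS (TTCNNNGAA), the ISRE core (GAAA, any 2 bases, GAAA) and the NF-kB motif (GGG, any 2 bases, TTTCC) on both strands, and matches are in capitals. Irf1 at chr11:53769764-53770063, plus strand, holds a GAS, Socs1 at chr16:10785487-10785786, minus strand, overlapping ISRE cores, and Cxcl10 at chr5:92348840-92349139, minus strand, an ISRE core. Gbp5 at chr3:142496684-142496983, plus strand, holds all 3 motifs. Nfkbia at chr12:55492598-55492897 and Tnfaip3 at chr10:19015361-19015660, both on the minus strand, hold NF-kB motifs. A match is a description, not a binding site or a cause.
Irf1: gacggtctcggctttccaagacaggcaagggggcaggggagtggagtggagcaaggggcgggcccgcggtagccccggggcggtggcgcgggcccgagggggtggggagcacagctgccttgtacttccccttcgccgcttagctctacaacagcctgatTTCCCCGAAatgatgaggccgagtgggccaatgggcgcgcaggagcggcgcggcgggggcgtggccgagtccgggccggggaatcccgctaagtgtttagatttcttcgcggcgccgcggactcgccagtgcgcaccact
Socs1: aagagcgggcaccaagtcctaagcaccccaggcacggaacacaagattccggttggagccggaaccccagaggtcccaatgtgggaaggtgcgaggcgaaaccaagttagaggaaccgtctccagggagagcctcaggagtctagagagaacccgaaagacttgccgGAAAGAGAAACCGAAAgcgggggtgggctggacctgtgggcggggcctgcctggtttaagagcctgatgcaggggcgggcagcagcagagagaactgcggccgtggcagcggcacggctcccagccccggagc
Cxcl10: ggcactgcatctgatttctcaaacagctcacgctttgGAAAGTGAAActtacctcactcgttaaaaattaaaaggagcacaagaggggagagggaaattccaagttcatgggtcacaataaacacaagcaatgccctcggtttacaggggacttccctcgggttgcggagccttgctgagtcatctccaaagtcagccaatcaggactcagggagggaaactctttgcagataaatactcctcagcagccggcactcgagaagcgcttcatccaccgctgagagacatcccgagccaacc
Gbp5: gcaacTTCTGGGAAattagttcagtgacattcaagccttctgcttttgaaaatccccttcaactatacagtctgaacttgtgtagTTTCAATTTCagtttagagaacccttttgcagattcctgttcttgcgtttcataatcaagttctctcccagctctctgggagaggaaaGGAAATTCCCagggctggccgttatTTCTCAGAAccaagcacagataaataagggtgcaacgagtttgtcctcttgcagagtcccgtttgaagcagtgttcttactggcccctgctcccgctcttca
Nfkbia: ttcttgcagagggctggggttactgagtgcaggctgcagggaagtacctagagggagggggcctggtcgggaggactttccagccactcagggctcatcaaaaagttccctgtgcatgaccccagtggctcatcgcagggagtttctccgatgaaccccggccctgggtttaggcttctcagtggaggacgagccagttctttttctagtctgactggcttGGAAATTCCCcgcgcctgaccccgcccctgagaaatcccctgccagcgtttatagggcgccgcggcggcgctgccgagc
Tnfaip3: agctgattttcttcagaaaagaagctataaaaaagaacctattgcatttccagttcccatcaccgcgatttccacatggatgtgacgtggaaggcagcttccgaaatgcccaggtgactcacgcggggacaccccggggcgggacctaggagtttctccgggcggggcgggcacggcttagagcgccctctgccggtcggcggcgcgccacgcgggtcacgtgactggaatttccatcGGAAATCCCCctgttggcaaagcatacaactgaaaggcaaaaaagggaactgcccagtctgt

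Antiviral genes that type I interferon also induces rose in 32 of 42 cases, with a median change of 0.94 over the list. Zbp1, a sensor of Z-form nucleic acid, went from 9.59 and 9.90 at 0 h to 12.63 and 12.79 at 6 h, a rise of 2.97 ± 0.21. Ifit2, which binds foreign RNA, rose by 2.11 ± 0.20, Oas3, which makes the activator of RNase L, by 1.49 ± 0.18, and Samhd1, which depletes nucleotides, by 0.79 ± 0.12. Both 6 h arrays lay above both 0 h arrays in these 4 genes. The PARP, Schlafen and p200 families followed, with 18 of 21 rising and a median of 1.24. Ifi205, a p200 protein, went from 8.72 and 8.34 at 0 h to 12.94 and 12.91 at 6 h, and Parp14 rose by 1.26 ± 0.12, from 11.87 and 11.80 at 0 h to 13.16 and 13.04 at 6 h. Aim2, the p200 sensor of cytosolic DNA, rose by 0.77 ± 0.16 (call lost without replicate 1 at 6 h, limma adjusted p = 0.0516). Ifi208 had a difference of 3.17 ± 1.66 that did not pass the test.

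Genes of class I antigen presentation rose in 13 of 17 cases, with a median of 0.84. The immunoproteasome subunits Psmb8, Psmb9 and Psmb10, which replace the standard catalytic subunits, rose by 1.73 ± 0.13, 1.65 ± 0.10 and 1.56 ± 0.12. The peptide transporter genes followed. Tap1 went from 10.58 and 10.74 at 0 h to 12.80 and 12.68 at 6 h, a rise of 2.08 ± 0.12, and Tap2 rose by 1.88 ± 0.13. Tapbpl, a peptide editor, rose by 2.42 ± 0.15 and Erap1, the peptide trimmer of the ER, by 1.18 ± 0.16. The light chain B2m went from 13.47 and 13.62 at 0 h to 13.54 and 13.69 at 6 h, a difference of 0.07 ± 0.10 that did not pass the test. Among 31 subunits of the standard proteasome 4 rose, with a median of 0.14. The 4 rises became 7 without replicate 1 at 0 h.

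Class II genes varied between arrays of the same group, and the test counts that variation as spread. In an alternative fit with replicate number as a block within each array set, 6 of the 10 class II genes measured rose. H2-Ab1, a class II beta chain, went from 9.56 and 8.47 at 0 h to 12.49 and 11.38 at 6 h, a rise of 2.92 ± 0.90 (limma adjusted p = 0.0405), and this call was lost without any 1 of the 4 arrays (adjusted p = 0.06 to 0.259). H2-Aa went from 9.53 and 7.75 at 0 h to 11.90 and 10.45 at 6 h, and its difference of 2.54 ± 1.38 did not pass the test. Cd74, the invariant chain, had a difference of 2.27 ± 0.96 and did not pass the test either. In all 3 genes replicate 1 lay above replicate 2 at both times. H2-DMa, which loads peptides onto class II, showed no such gap and rose by 2.06 ± 0.19, from 9.96 and 10.20 at 0 h to 12.24 and 12.04 at 6 h. Of the 10 class II genes measured 2 rose, H2-Ab1 and H2-DMa (1 without replicate 1 at 0 h, 1 without replicate 2 at 0 h and 1 without replicate 1 at 6 h).

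More cytokines and cytokine receptors rose than fell, where 7.48% of all genes rose and 10.8% fell. Tnf went from 9.19 and 7.79 at 0 h to 13.11 and 12.25 at 6 h, a rise of 4.19 ± 0.65, with the replicates apart by more than 0.8 at both times. Il27, a cytokine that shapes T cells, rose by 2.16 ± 0.22, from 8.04 and 8.10 at 0 h to 10.72 and 9.74 at 6 h, and Il18bp, a decoy for IL-18, by 1.90 ± 0.20, from 8.87 and 9.08 at 0 h to 11.06 and 10.69 at 6 h. Il15 rose by 1.01 ± 0.25 with its presenting receptor Il15ra, by 2.26 ± 0.20. The Il15 call was lost without replicate 1 at 0 h (limma adjusted p = 0.08) or at 6 h (limma adjusted p = 0.157). Ifng and Ifnb1 themselves had a difference of 0.01 ± 0.11 and 0.04 ± 0.15. The IL-1 antagonist Il1rn rose by 2.15 ± 0.20, and Il1b had a difference of -0.73 ± 0.47 without passing the test. Of 24 cytokines and growth factors 9 rose, and Igf1 and Osm fell, with changes of -0.66 ± 0.12 and -0.74 ± 0.14.

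Among 25 cytokine receptors 9 rose and 4 fell. The count of 4 falls was 2 without replicate 1 at 0 h. Both chains of the IL-12 receptor rose, Il12rb1 by 2.74 ± 0.21 and Il12rb2 by 2.25 ± 0.36. Il18rap, a chain of the IL-18 receptor, went from 7.13 and 6.88 at 0 h to 10.35 and 10.20 at 6 h, a rise of 3.27 ± 0.19. Its partner Il18r1 went from 5.45 and 5.61 at 0 h to 5.61 and 5.69 at 6 h, levels not above background. The TNF receptors parted. Tnfrsf1a rose by 1.27 ± 0.13, from 11.08 and 11.40 at 0 h to 12.53 and 12.50 at 6 h, and Tnfrsf1b fell by 1.67 ± 0.39, from 12.54 and 12.41 at 0 h to 10.56 and 11.07 at 6 h. The Tnfrsf1b fall was not called without replicate 1 at 0 h (limma adjusted p = 0.0552) or at 6 h (limma adjusted p = 0.0885). Il17ra fell by 1.56 ± 0.16, with a difference of 0.05 ± 0.16 at 3 h, and the difference between the times passed the test (limma adjusted p = 0.00637).

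Surface molecules that speak to T and NK cells rose, 12 of 26 measured, while 3 fell, with a median of 0.89. Cd40, the receptor for T cell help, went from 9.10 and 9.23 at 0 h to 13.36 and 12.46 at 6 h, a rise of 3.75 ± 0.32. The costimulator Cd86 rose by 3.00 ± 0.24 and the checkpoint ligand Cd274 by 3.23 ± 0.55, from 10.46 and 9.21 at 0 h to 13.22 and 12.90 at 6 h. Cd80, the relative of Cd86, had a difference of -0.54 ± 0.37 and did not pass the test. Tnfsf10, the death ligand TRAIL, rose by 4.6 ± 0.21, from 7.52 and 7.62 at 0 h to 12.05 and 12.29 at 6 h, and the death receptor Fas by 2.61 ± 0.19. Slamf8 rose by 5.30 ± 0.30, from 7.16 and 6.90 at 0 h to 12.60 and 12.05 at 6 h. Of checkpoint molecules, Havcr2 (TIM-3) fell by 1.5 ± 0.16 and Vsir (VISTA) fell by 0.81 ± 0.20 (call lost without replicate 2 at 0 h, limma adjusted p = 0.0786 and replicate 1 at 6 h, limma adjusted p = 0.143).

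Of 27 inflammasome and cell death genes 9 rose and 1 fell (0 without replicate 1 at 0 h, 0 without replicate 2 at 0 h, 0 without replicate 1 at 6 h and 0 without replicate 2 at 6 h). Mlkl, the executor of necroptosis, went from 9.84 and 9.59 at 0 h to 12.05 and 11.98 at 6 h, a rise of 2.30 ± 0.17. Casp4 and Casp1, the caspases of the inflammasomes, rose by 1.98 ± 0.26 and 1.34 ± 0.18, and their substrate Gsdmd by 1.08 ± 0.16. Nlrp3, the inflammasome sensor, rose by 1.51 ± 0.30, a call lost without replicate 1 at 6 h (limma adjusted p = 0.052). The brakes rose beside them, Cflar by 1.25 ± 0.21 and Birc3 by 1.19 ± 0.17.

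NF-kB subunits and their feedback inhibitors rose in 14 of 23 genes, with a median of 0.84 and 1 fall (0 without replicate 2 at 0 h and 0 without replicate 1 at 6 h). Tnfaip3, which removes ubiquitin chains from the pathway, went from 9.02 and 8.56 at 0 h to 11.71 and 11.35 at 6 h, a rise of 2.74 ± 0.32. Nfkbia, the main inhibitor of NF-kB, rose by 1.42 ± 0.24, from 11.56 and 11.24 at 0 h to 12.97 and 12.66 at 6 h, and Nfkbie by 2.77 ± 0.44, from 9.02 and 8.66 at 0 h to 12.15 and 11.08 at 6 h. Here replicate 1 lay above replicate 2 at 6 h in 21 of the 23 genes, by a median of 0.40, against a median of 0.00 over all genes. Without replicate 1 at 6 h, 9 of the 23 genes rose, and without replicate 2 at 0 h, 9 again. Such a gap between the 6 h replicates was also seen for Nos2 and Vcam1. Nos2, the nitric oxide synthase, went from 6.43 and 6.44 at 0 h to 10.19 and 7.95 at 6 h, with 0 h levels not above background. Vcam1, an adhesion molecule, went from 6.64 and 7.25 at 0 h to 10.40 and 8.06 at 6 h, and its rise of 2.29 ± 0.52 was lost without replicate 1 at 0 h (limma adjusted p = 0.0683). The part of the difference between replicates in these results was not tested.

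**Figure D2:**
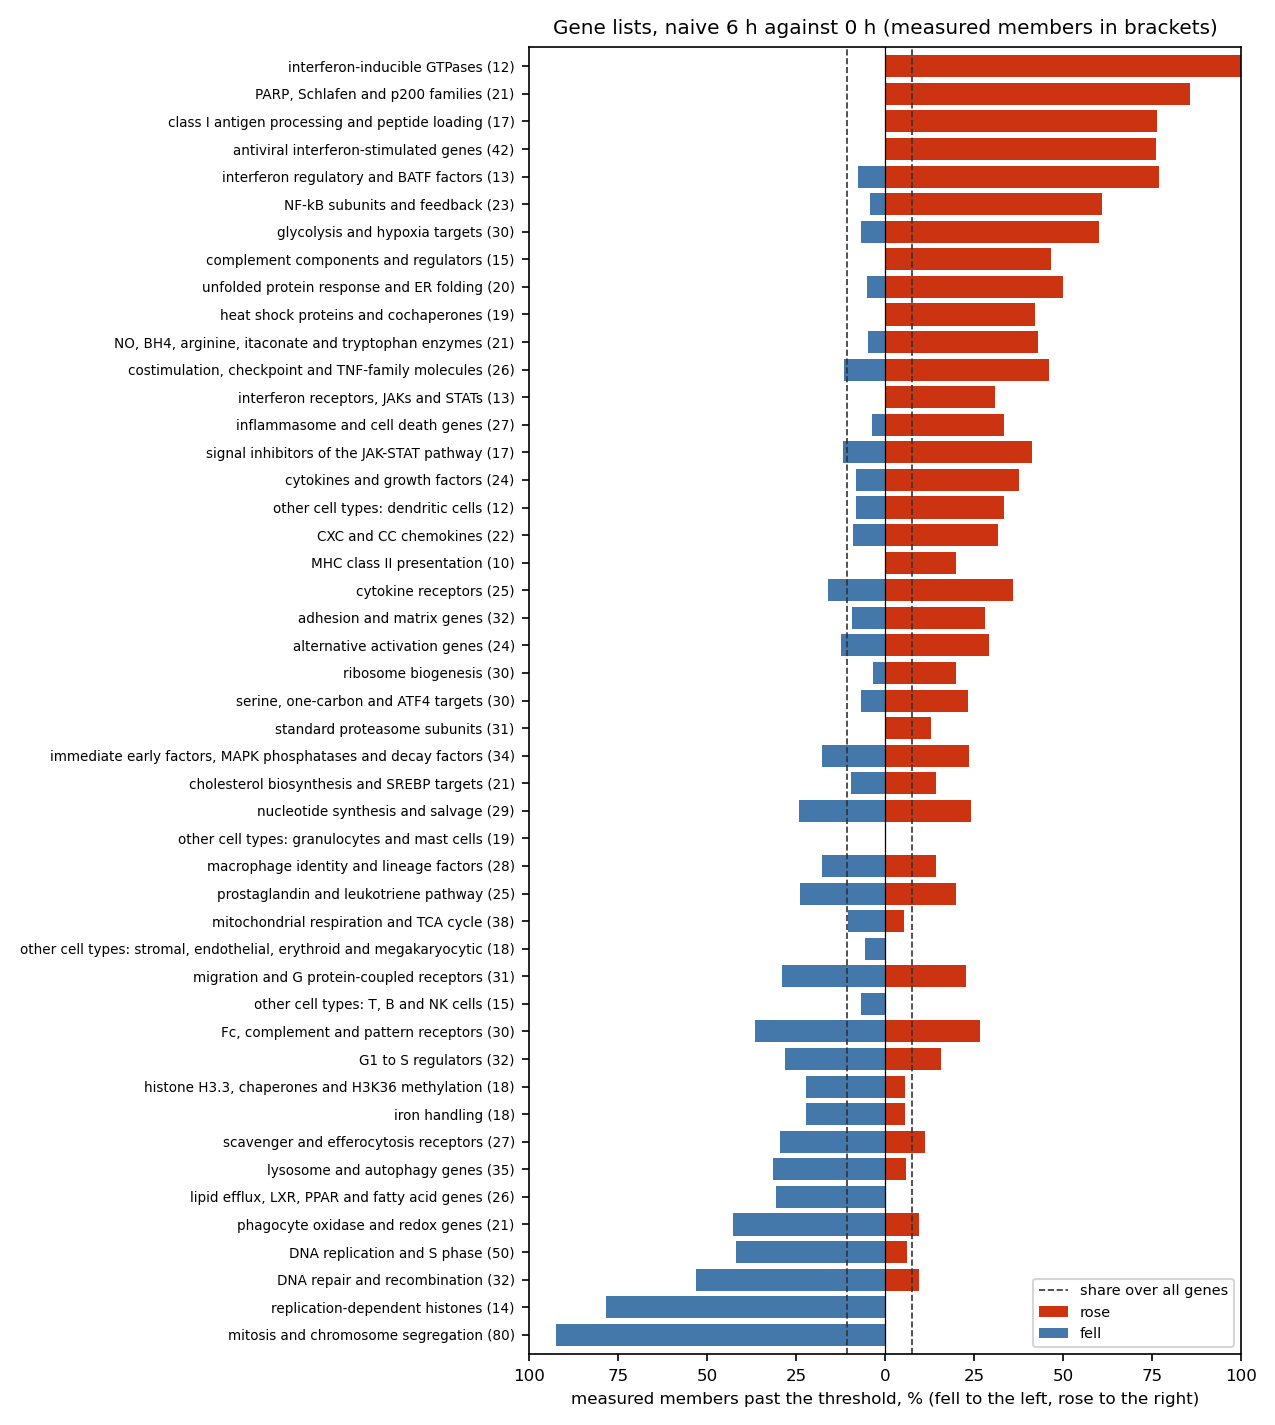
Share of the measured members of each gene list that rose (bars to the right) or fell (bars to the left) between naive 0 h and 6 h at a limma adjusted p under 0.05, in percent, with dashed lines at the shares over all genes, 7.48% and 10.8%. GTPases, with 12 of 12 rising, and mitosis genes, with 74 of 80 falling, lie at the ends.

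Enzymes of nitric oxide, arginine, itaconate and tryptophan metabolism rose in 9 of 21 genes, with 1 fall (0 without replicate 2 at 0 h and 0 without replicate 1 at 6 h). The number that rose was 5 without replicate 2 at 0 h. Acod1, which makes itaconate, went from 9.46 and 8.72 at 0 h to 13.67 and 13.48 at 6 h, a rise of 4.48 ± 0.28. Wars, the tryptophan tRNA ligase, rose by 2.75 ± 0.15, from 10.60 and 10.55 at 0 h to 13.21 and 13.43 at 6 h. Gch1, which starts the synthesis of the Nos2 cofactor tetrahydrobiopterin, rose by 1.45 ± 0.33, from 7.34 and 7.3 at 0 h to 9.42 and 8.12 at 6 h, and lost its call without replicate 2 at 0 h or replicate 1 at 6 h (limma adjusted p = 0.0504 and 0.0725). Sod2, the mitochondrial superoxide dismutase, rose by 1.86 ± 0.15. Of 21 oxidase and redox genes, Sod2 included, 9 fell, among them the catalase Cat, which fell by 0.99 ± 0.15, and the haem oxygenase Hmox1, which fell by 1.48 ± 0.34. The 9 falls became 5 without replicate 2 at 0 h, 5 without replicate 1 at 6 h and 5 without replicate 2 at 6 h. The Hmox1 call was lost without replicate 2 at 0 h or replicate 1 at 6 h (limma adjusted p = 0.0805 and 0.0669).

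Complement components and regulators rose in 7 of 15 cases. Cfb, the protease of the alternative pathway, went from 6.88 and 7.31 at 0 h to 10.79 and 11.14 at 6 h, a rise of 3.87 ± 0.26. C1ra, C1s1 and C1rl, neighbours on chromosome 6 that encode or resemble the proteases of C1, rose by 2.20 ± 0.14, 2.82 ± 0.20 and 1.41 ± 0.12, C1s1 from 4.82 and 5.08 at 0 h to 8.02 and 7.51 at 6 h, a 0 h level not above background. C4b rose by 2.38 ± 0.23. Cfb rose more than at 3 h, by 2.28 ± 0.37 (limma adjusted p = 0.0108). C1qa, of the C1 complex, went from 10.82 and 12.25 at 0 h to 11.82 and 12.30 at 6 h and did not pass the test.

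The enzymes of prostaglandin E2 rose along the pathway. Pla2g4a, which frees arachidonate, went from 9.26 and 8.82 at 0 h to 12.48 and 12.39 at 6 h, a rise of 3.39 ± 0.44. Ptgs2, the inducible cyclooxygenase, rose by 5.65 ± 0.50, from 7.23 and 7.01 at 0 h to 13.11 and 12.42 at 6 h, and the synthase Ptges by 1.71 ± 0.15, from 7.27 and 7.14 at 0 h to 8.91 and 8.92 at 6 h. Hpgd, which degrades prostaglandins, fell by 3.14 ± 0.50, from 12.36 and 13.06 at 0 h to 8.83 and 10.29 at 6 h. Hpgds, the synthase of prostaglandin D2, fell by 1.33 ± 0.25. Lta4h, which makes leukotriene B4, fell by 0.65 ± 0.13. Ptger2, a receptor for prostaglandin E2, fell by 1.23 ± 0.20, with both levels within the range of absent markers. Its relative Ptger4 rose by 1.14 ± 0.25 (call lost without replicate 2 at 0 h, limma adjusted p = 0.0532 and replicate 1 at 6 h, limma adjusted p = 0.0785). In the whole list of 25 genes, 5 rose and 6 fell. The count of 5 rises was 3 without replicate 2 at 0 h and 3 without replicate 1 at 6 h.

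Glucose uptake and glycolysis genes rose in 18 of 30, with a median of 0.71 and 2 falls. With any 1 of the 4 arrays left out fewer rises, and at times fewer falls, were called. The median was then 0.62 to 0.80. The glucose transporter Slc2a1 went from 10.74 and 10.36 at 0 h to 13.10 and 12.97 at 6 h, a rise of 2.48 ± 0.28. The gate enzymes rose, hexokinase Hk2 by 1.69 ± 0.17 and phosphofructokinases Pfkp and Pfkl by 2.35 ± 0.18 and 1.58 ± 0.29. The lactate exporter Slc16a3 rose by 2.02 ± 0.34, and Ak4, a mitochondrial adenylate kinase that hypoxia induces, by 4.21 ± 0.60, from 6.60 and 6.78 at 0 h to 11.01 and 10.80 at 6 h. Hif1a, the factor of this programme, rose by 1.38 ± 0.19. Slc2a3, another glucose transporter, fell by 1.64 ± 0.13. Of the 30 genes 9 had a larger change at 6 h than at 3 h, where 1 rose and 1 fell. Of 38 mitochondrial respiration and TCA cycle genes 4 fell and 2 rose, near the shares of 10.8% and 7.48% over all genes. The count of rises moved with 1 array left out. The cytosolic isocitrate dehydrogenase Idh1 fell by 1.93 ± 0.15, from 12.92 and 12.82 at 0 h to 10.77 and 11.11 at 6 h, and the coactivator Ppargc1b rose by 2.07 ± 0.15.

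Upp1, the uridine phosphorylase that salvages pyrimidines, went from 7.13 and 6.54 at 0 h to 12.08 and 11.35 at 6 h, a rise of 4.88 ± 0.27. Nucleotide genes moved in both directions. The salvage enzymes Pnp, Hprt and Dck rose by 1.33 ± 0.17, 1.17 ± 0.12 and 1.26 ± 0.20. The ribonucleotide reductase subunits Rrm1 and Rrm2, which serve DNA synthesis, fell, with changes of -1.36 ± 0.21 and -1.94 ± 0.26. Of 29 genes 7 rose and 7 fell. The number that fell was 4 without replicate 1 at 0 h, 4 without replicate 1 at 6 h and 4 without replicate 2 at 6 h.

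Genes of the unfolded protein response and of folding in the endoplasmic reticulum rose in 10 of 20 cases, with 1 fall (0 without replicate 2 at 0 h and 0 without replicate 1 at 6 h). Hyou1 went from 10.10 and 10.15 at 0 h to 11.60 and 11.41 at 6 h, a rise of 1.38 ± 0.22, and Manf rose by 1.45 ± 0.20. Hspa5 (BiP), the central chaperone, rose by 0.59 ± 0.14 (call lost without replicate 2 at 0 h, limma adjusted p = 0.0797). The stress sensor Ern1 fell by 1.0 ± 0.21 (call lost without replicate 2 at 0 h, limma adjusted p = 0.0578 and replicate 1 at 6 h, limma adjusted p = 0.071). Among heat shock proteins 8 of 19 rose, Hspa1a by 1.01 ± 0.16 and Dnajb1 by 0.89 ± 0.15, but 3 without replicate 2 at 0 h and 3 without replicate 1 at 6 h. Serine and one-carbon genes rose in 7 of 30. Mthfd2, the mitochondrial folate enzyme, went from 8.85 and 8.15 at 0 h to 11.61 and 10.43 at 6 h, a rise of 2.52 ± 0.33, and Psat1, of serine synthesis, rose by 1.30 ± 0.26. In that list replicate 1 lay above replicate 2 at 6 h in 27 of the 30 genes, by a median of 0.41. The 7 rises became 4 without replicate 2 at 0 h, 4 without replicate 1 at 6 h and 11 without replicate 2 at 6 h.

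The main gene of iron export fell. Slc40a1, ferroportin, the exporter of iron from macrophages, went from 12.40 and 12.64 at 0 h to 8.56 and 7.71 at 6 h, a change of -4.39 ± 0.32 (limma adjusted p = 2.35e-06). Both 6 h arrays lay far below the 0 h arrays. Of 18 iron genes 1 rose and 4 fell. The haemoglobin receptor Cd163 fell by 1.19 ± 0.18, the haemopexin receptor Lrp1 fell by 1.36 ± 0.14 and the ferrireductase Steap3 fell by 1.47 ± 0.19. Both levels of Cd163 lay within the range of absent markers. The ferroxidase Cp rose by 1.72 ± 0.31. The transferrin receptor Tfrc had a difference of 0.92 ± 0.33 and did not pass the test.

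Cholesterol efflux and lipid genes fell in 8 of 26, with a median of -0.30. The count of 8 falls was 5 without replicate 1 at 0 h and 5 without replicate 2 at 6 h. Abca1, the exporter of cholesterol, went from 12.13 and 12.41 at 0 h to 9.53 and 9.75 at 6 h, a change of -2.63 ± 0.37. Abcd2, a peroxisomal fatty acid transporter, fell by 3.55 ± 0.41, from 10.82 and 10.95 at 0 h to 6.76 and 7.91 at 6 h, and the lipid droplet protein Plin2 fell by 1.14 ± 0.15. Ch25h, which makes 25-hydroxycholesterol, went from 6.05 and 6.35 at 0 h to 10.71 and 11.87 at 6 h, with 0 h levels not above background. The cholesterol synthesis list differed between replicates, with replicate 1 above replicate 2 by a median of 0.78 at 0 h and 0.99 at 6 h, and 3 of 21 genes rose and 2 fell (0 without replicate 1 at 0 h, 1 without replicate 1 at 6 h and 0 without replicate 2 at 6 h).

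Several receptors that guide cells through tissue fell. S1pr1, the receptor that draws cells towards blood, went from 10.98 and 11.17 at 0 h to 6.92 and 6.63 at 6 h, a measured change of -4.3 ± 0.18 (limma adjusted p = 5.53e-08) to 6 h levels within the range of absent markers. Gpr183, the receptor for oxysterols downstream of Ch25h, fell by 2.60 ± 0.19, from 9.95 and 9.72 at 0 h to 7.04 and 7.44 at 6 h, and the fractalkine receptor Cx3cr1 fell by 1.95 ± 0.31. Other G protein-coupled receptors rose, Hcar2, the butyrate and niacin receptor, by 3.61 ± 0.51, from 6.54 and 6.48 at 0 h to 10.73 and 9.5 at 6 h, and Gpr18 by 2.94 ± 0.23. In this list of 31 genes 7 rose and 9 fell. The number that rose was 3 without replicate 2 at 0 h and 3 without replicate 1 at 6 h. The adhesion molecule Icam1 rose by 2.22 ± 0.20, the proteases Mmp25 and Mmp13 by 3.62 ± 0.18 and 2.79 ± 0.25, and the integrins Itgb5 and Itga6 fell, with changes of -1.55 ± 0.15 and -1.28 ± 0.16. Of 32 adhesion and matrix genes 9 rose and 3 fell. The 9 rises became 5 without replicate 1 at 0 h and 5 without replicate 1 at 6 h.

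Receptors for microbes and immune complexes moved in both directions. The activating Fc receptors rose, Fcgr4 by 2.17 ± 0.20, from 10.87 and 11.48 at 0 h to 13.24 and 13.45 at 6 h, and Fcgr1 by 1.54 ± 0.18. The adaptor Myd88 rose by 1.22 ± 0.10. The endosomal receptors Tlr7 and Tlr8 fell, with changes of -1.05 ± 0.11 and -1.70 ± 0.21, and Tlr3 rose by 0.79 ± 0.15. The complement receptor C5ar2 fell by 1.72 ± 0.27. Of 30 such genes 8 rose and 11 fell. The count of 11 falls was 7 without replicate 1 at 0 h and 6 without replicate 2 at 0 h. Scavenger receptors fell in 8 of 27, with 3 rising. Cd300lb, Cd300ld and Cd300c2, neighbours on chromosome 11 that encode lipid-binding receptors, fell, with changes of -2.92 ± 0.32, -1.93 ± 0.17 and -1.25 ± 0.17. Gas6, a bridge between dying cells and their receptors, fell by 1.29 ± 0.15. The autophagy genes Ulk1 and Gabarapl1 fell, with changes of -1.73 ± 0.28 and -1.74 ± 0.25, in a list of 35 lysosome and autophagy genes with 11 falls and 2 rises (1 without replicate 2 at 0 h, 1 without replicate 1 at 6 h and 0 without replicate 2 at 6 h). The number that fell was 7 without replicate 1 at 0 h, 5 without replicate 2 at 0 h, 6 without replicate 1 at 6 h and 6 without replicate 2 at 6 h.

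Of 28 macrophage lineage and identity genes 4 rose and 5 fell. The 5 falls became 3 without replicate 1 at 0 h, 2 without replicate 2 at 0 h and 2 without replicate 1 at 6 h. Maf, a factor of resident macrophages, fell by 0.93 ± 0.10. Csf1r, the receptor for Csf1, had a difference of -0.16 ± 0.10 that did not pass the test. Of 24 genes known from alternative activation 7 rose and 3 fell (1 without replicate 2 at 0 h and 1 without replicate 1 at 6 h). The 5 dendritic markers averaged 6.51 and 6.45 on the 0 h arrays and 7.55 and 7.52 on the 6 h arrays. Clec9a and Xcr1, markers of a dendritic cell type, rose, Clec9a from 5.70 and 5.39 at 0 h to 9.72 and 10.25 at 6 h, from a level not above background, and Xcr1 from 6.57 and 6.52 at 0 h to 8.18 and 7.11 at 6 h. The Xcr1 call was lost without either 0 h array or without replicate 1 at 6 h (limma adjusted p = 0.0635, 0.0828 and 0.171). Of the other dendritic markers, Flt3, Zbtb46 and Siglech had differences of -0.08 ± 0.17, -0.12 ± 0.13 and -0.05 ± 0.15 that did not pass the test. Whether cells of another type had part in these rises was not tested.

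Cell division genes fell in 74 of 80 cases, with a median of -1.99. Plk1, the kinase that drives mitotic entry, went from 10.90 and 10.93 at 0 h to 8.32 and 8.36 at 6 h, a change of -2.57 ± 0.15 (limma adjusted p = 4.5e-07). Ccna2, cyclin A, fell by 2.67 ± 0.19, from 11.51 and 11.54 at 0 h to 8.93 and 8.78 at 6 h. Kif20a, a motor of the dividing cell, fell by 3.02 ± 0.20, from 10.84 and 10.74 at 0 h to 7.92 and 7.63 at 6 h, and the spindle checkpoint kinase Bub1 fell by 2.82 ± 0.26. The 2 arrays of each time lay within 0.5 of each other for these 4 genes, and the times did not overlap. With 1 array left out, 69 to 70 of the 80 fell. In RNA of a whole culture, fewer dividing cells and less RNA per cell cannot be told apart.

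Replication genes fell too. Of 50 such genes 21 fell, with a median of -0.69, and 3 rose (1 without replicate 2 at 0 h and 1 without replicate 1 at 6 h). Mcm7, of the helicase, went from 9.85 and 9.86 at 0 h to 8.06 and 8.0 at 6 h, a change of -1.83 ± 0.25. The count of 21 falls was 8 without replicate 1 at 0 h and 9 without replicate 1 at 6 h. DNA repair genes fell in 17 of 32 cases. The number that fell was 11 without replicate 2 at 6 h. Chek2, the checkpoint kinase, fell by 1.73 ± 0.15 and Neil3, a glycosylase, fell by 2.55 ± 0.24. Of 14 histone genes of S phase 11 fell. H2bc3 fell by 2.51 ± 0.28, from 10.39 and 11.17 at 0 h to 8.42 and 8.12 at 6 h. Asf1b and Chaf1b, chaperones that deposit the histones of replication, fell, with changes of -2.05 ± 0.17 and -1.61 ± 0.26. Daxx, a chaperone of the H3.3 variant that is tagged in these mice, rose by 1.45 ± 0.17. It alone rose among 18 measured genes of H3.3, histone chaperones and H3K36 methylation, of which 4 fell, with a median of -0.03. Among regulators of entry into S phase the cyclin Ccnd2 rose by 3.03 ± 0.56, from 9.12 and 8.28 at 0 h to 12.27 and 11.20 at 6 h, the inhibitor Rbl1 rose by 2.06 ± 0.22, and E2f1 and Cdkn2c fell, with changes of -0.94 ± 0.18 and -1.40 ± 0.16.

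The windows of Plk1 at chr7:122159185-122159484, plus strand, and Ccnb2 at chr9:70421505-70421804, minus strand, are shown for the letters that cell cycle genes are known to share, the cell cycle homology region (TTTGAA, named CHR) and the NF-Y motif (CCAAT), searched on both strands with matches in capitals, from RefSeq on GRCm38.p6. Ccnb2, cyclin B, fell by 1.69 ± 0.20, from 12.62 and 12.47 at 0 h to 10.76 and 10.94 at 6 h.
Plk1: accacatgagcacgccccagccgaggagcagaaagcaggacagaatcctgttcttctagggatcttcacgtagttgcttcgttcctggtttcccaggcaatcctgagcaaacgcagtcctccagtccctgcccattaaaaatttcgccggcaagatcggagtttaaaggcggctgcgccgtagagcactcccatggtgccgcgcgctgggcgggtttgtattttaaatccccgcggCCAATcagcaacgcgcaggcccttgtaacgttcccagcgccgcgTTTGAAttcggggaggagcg
Ccnb2: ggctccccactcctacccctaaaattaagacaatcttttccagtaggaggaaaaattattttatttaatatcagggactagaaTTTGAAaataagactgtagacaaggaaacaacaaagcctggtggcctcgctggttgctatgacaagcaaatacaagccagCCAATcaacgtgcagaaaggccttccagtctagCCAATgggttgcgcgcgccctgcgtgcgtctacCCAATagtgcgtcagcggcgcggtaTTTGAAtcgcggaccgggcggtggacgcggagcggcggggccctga

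The motif shares were counted over whole windows. The CHR letters stand in 17.9% of the 32851 windows from RefSeq and CCAAT in 37.4%, against 69.0% and 70.4% of the 71 windows of the mitosis list. The 2268 windows of genes that fell held CHR and CCAAT in 15.5% and 41.8%. The 121 windows of genes that fell by at least 4-fold held them in 36.4% and 57.0%. Among windows of tested genes CHR stood in 2847 of 19177, a lower share than in all windows. That share was slightly below the 15.5% of genes that fell. CCAAT stood in 37.4% of the windows of tested genes. The ISRE core stood in 3.44% of all windows and in 3.27% of those of tested genes. Its share was 6.94% of the 1541 windows of genes that rose and 13.8% of the 167 windows of genes that rose by at least 4-fold. It stood in 31.9% of the windows of the antiviral list and in 47.6% of those of the PARP, Schlafen and p200 list. GAS stood in 8.3% of all windows and in 7.66% of those of tested genes. Its share was 8.18% for genes that rose and 11.4% for genes that rose by at least 4-fold. The NF-kB motif stood in 1.63% of all windows, in 1.57% of those of tested genes and in 33.3% of the 30 windows of the NF-kB list. Windows of Cxcl9, Tap1, Psmb9, Nfkbie and Tnfsf10 hold none of GAS, ISRE core and the NF-kB motif, which says only that these letters are not in this window. Short motifs occur often, and these shares carry no test.

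**Figure D3:**
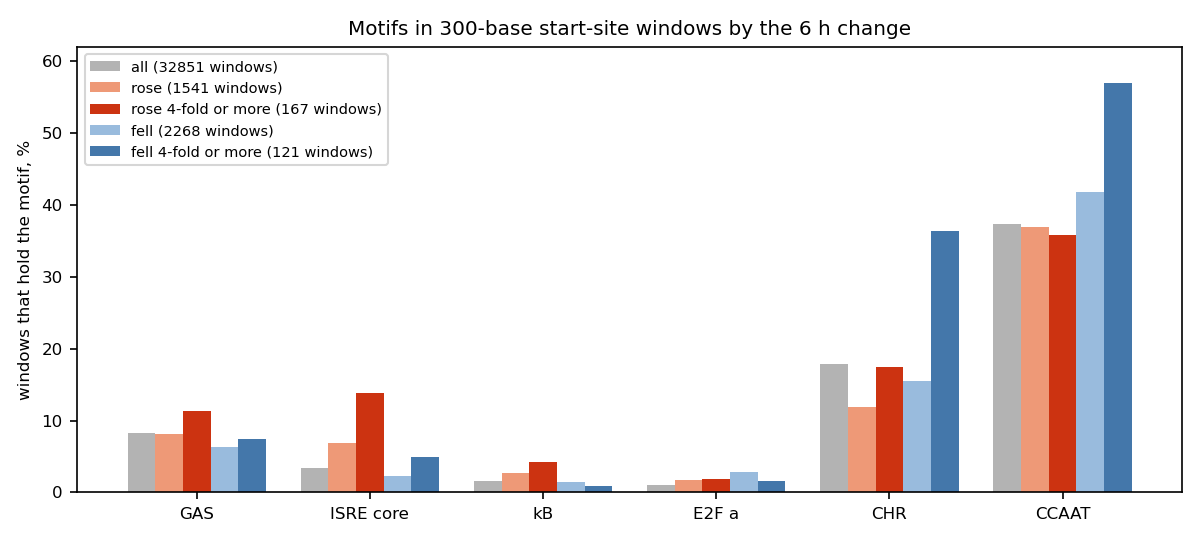
Share of 300-base windows around start sites that hold each motif on either strand, in percent, for all windows of the table and for groups of genes by their change at 6 h (kB is the NF-kB motif, E2F a TTTCCCGC). The ISRE core rises from 3.44% of all windows to 13.8% of those of genes that rose by at least 4-fold, and CCAAT from 37.4% to 57.0% of those of genes that fell by at least 4-fold. All windows include genes that were not tested. Over windows of tested genes the ISRE core and CCAAT shares were 3.27% and 37.4%.

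Genes that changed lay beside each other in places. Among 18562 protein-coding genes with a position, 44 runs of at least 3 adjacent genes rose, with 156 genes, and 74 runs fell, with 253. Over all genes tested 7.48% rose and 10.8% fell, and the number of runs that a random order would give was not worked out. Genes that were not tested or not protein-coding were skipped when genes were taken as adjacent. The longest rising run, of 9 genes on chromosome 5, holds Cxcl9 and Cxcl10 with 7 others. On chromosome 17 Psmb9, Tap1, Psmb8 and Tap2 lie in a rising run with H2-DMa. On chromosome 14 Phf11a, Phf11c and Phf11d, a family of nuclear proteins, lie in a run of 6 whose median change was 2.12. Runs of falling genes include histone clusters on chromosome 13. Overlapping transcripts of neighbours were not told apart.

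The response at 6 h was set against that at 3 h, measured in naive cells on the other array set against its own 0 h arrays. No array is shared between the comparisons, but time and array set cannot be told apart. Of genes that rose at 6 h, 518 also rose at 3 h, which is 34.7% of the 6 h list and 77.2% of the 671 that rose at 3 h (3.37%, in a comparison that called 5.46% of genes). Of genes that fell, 308 also fell at 3 h, 14.3% of the 6 h list and 73.9% of the 417 at 3 h (2.09%). Only 1 gene rose at 6 h and fell at 3 h, and 2 did the reverse. The test of the difference found 136 genes higher at 6 h (0.682%) and 209 lower (1.05%), 345 in all (1.73%). That count was 214 and 104 without replicate 1 or 2 at 0 h of the 6 h set. It was 102 without replicate 2 at 0 h of the other set, 159 and 63 without replicate 1 or 2 at 3 h, and 134 without replicate 1 at 6 h.

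Some genes that rose at both times were not called different between them. Cxcl9 had risen by 7.32 ± 0.17 at 3 h, Irf1 by 2.93 ± 0.15 and Iigp1 by 6.39 ± 0.27, and the differences of -0.20 ± 0.24, -0.67 ± 0.21 and -0.92 ± 0.38 did not pass the test (limma adjusted p = 0.871, 0.153 and 0.302).

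Hypoxia targets and cell division genes were among those that differed. Ak4 stood at 6.5 and 8.42 at 0 h and 6.64 and 7.51 at 3 h, a difference of -0.39 ± 0.60, and its 6 h change was larger by 4.6 ± 0.84 (limma adjusted p = 0.0195). The difference for Ak4 lost its call without replicate 1 at 0 h of the 6 h set, limma adjusted p = 0.0582, replicate 2 at 0 h of the 6 h set, limma adjusted p = 0.0743, replicate 2 at 0 h of the 3 h set, limma adjusted p = 0.0667, replicate 1 at 3 h of the 3 h set, limma adjusted p = 0.0808, replicate 2 at 3 h of the 3 h set, limma adjusted p = 0.0535 and replicate 1 at 6 h of the 6 h set, limma adjusted p = 0.0742. Pfkp had a difference at 3 h of 0.49 ± 0.18 that did not pass the test, and its rise at 6 h was larger by 1.86 ± 0.25 (limma adjusted p = 0.00581). Ptges had a difference at 3 h of 0.10 ± 0.15, and its rise at 6 h was larger by 1.60 ± 0.21 (limma adjusted p = 0.00581). Slc40a1 stood at 12.41 and 11.54 at 0 h and 11.45 and 11.10 at 3 h, and its change at 6 h was lower by 3.69 ± 0.45 (limma adjusted p = 0.00431). Of the 80 mitosis genes 3 fell at 3 h, and 43 were lower at 6 h by the test of the difference. Plk1 stood at 11.96 and 12 at 0 h and 11.57 and 11.74 at 3 h, a difference of -0.32 ± 0.15, and its change at 6 h was lower by 2.25 ± 0.21 (limma adjusted p = 0.000598). Idh1 had a difference of -0.42 ± 0.15 at 3 h, and its 6 h change was lower by 1.51 ± 0.21 (limma adjusted p = 0.00646). Rasgrp1, a Ras activator, rose by 1.43 ± 0.17 at 3 h and by 3.82 ± 0.17 at 6 h (limma adjusted p of the difference = 0.00134).

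**Figure D4:**
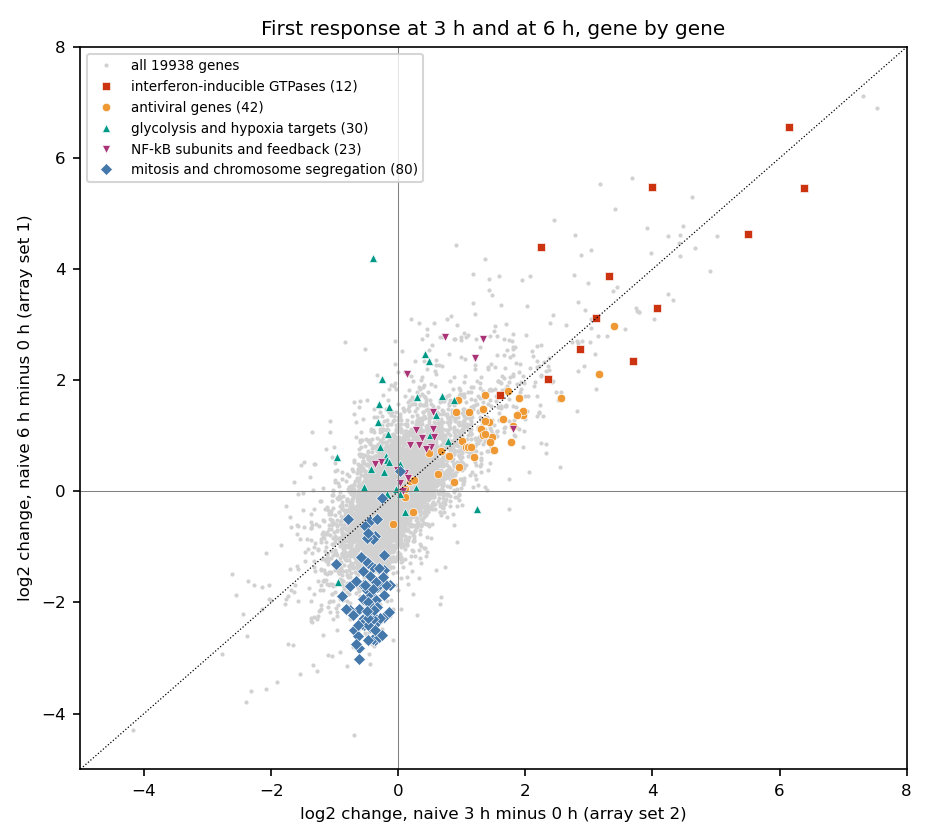
Log2 change of each gene at 3 h (x axis, array set 2) and at 6 h (y axis, array set 1) in naive cells, each against the 0 h arrays of its set, with all 19938 genes in grey and members of named lists in colour. Mitosis genes have a median of -0.44 at 3 h and of -1.99 at 6 h, while GTPases lie high on both.

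The same 6 h of interferon gave smaller rises for some genes in pretreated cells. Pretreated cells had 576 genes up (2.89%) and 550 down (2.76%) against their own 0 h arrays of the same set. By the test of the difference 23 genes rose more in naive cells (0.115%) and 6 had a lower difference (0.0301%), 29 in all (0.145%). The count was 18 and 5 without replicate 1 or 2 of the naive 0 h arrays, and 4 and 157 without replicate 1 or 2 of the naive 6 h arrays. It was 9 without replicate 2 of the pretreated 0 h arrays and 4 without either pretreated 6 h array. Cxcl9 stood at 11.49 and 11.72 at 0 h and 13.45 and 13.56 at 6 h in pretreated cells, so its rise was larger in naive cells by 5.22 ± 0.24 (limma adjusted p = 6.65e-07). Iigp1 stood at 10.70 and 11.84 at 0 h and 12.90 and 13.04 at 6 h in pretreated cells, a difference of 3.78 ± 0.38 (limma adjusted p = 0.00214). Rasgrp1 stood at 6.96 and 7.07 at 0 h and 8.31 and 8.41 at 6 h in pretreated cells, a difference of 2.47 ± 0.25 (limma adjusted p = 0.00214). With any 1 of the 8 arrays left out, 4 of the 29 genes kept their call each time, these 3 and Gm4951. The 23 genes were picked for a larger naive rise on these same arrays. That choice favours higher pretreated 0 h values, higher naive 6 h values or both. The counts that follow describe the picked genes, are no test of pretreatment and were not set against all genes. Of the 23 genes, 19 had both pretreated 0 h arrays above both naive 0 h arrays, and 14 had both naive 6 h arrays above both pretreated 6 h arrays. Gbp4, Iigp1, Tap1, Psmb9 and Zbp1 are among 9 genes with the first order alone. Fas and C1s1 are among 4 with the second alone, and 10 genes showed both. Fas stood at 7.67 and 7.95 at 0 h and 8.76 and 8.89 at 6 h in pretreated cells.

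**Figure D5:**
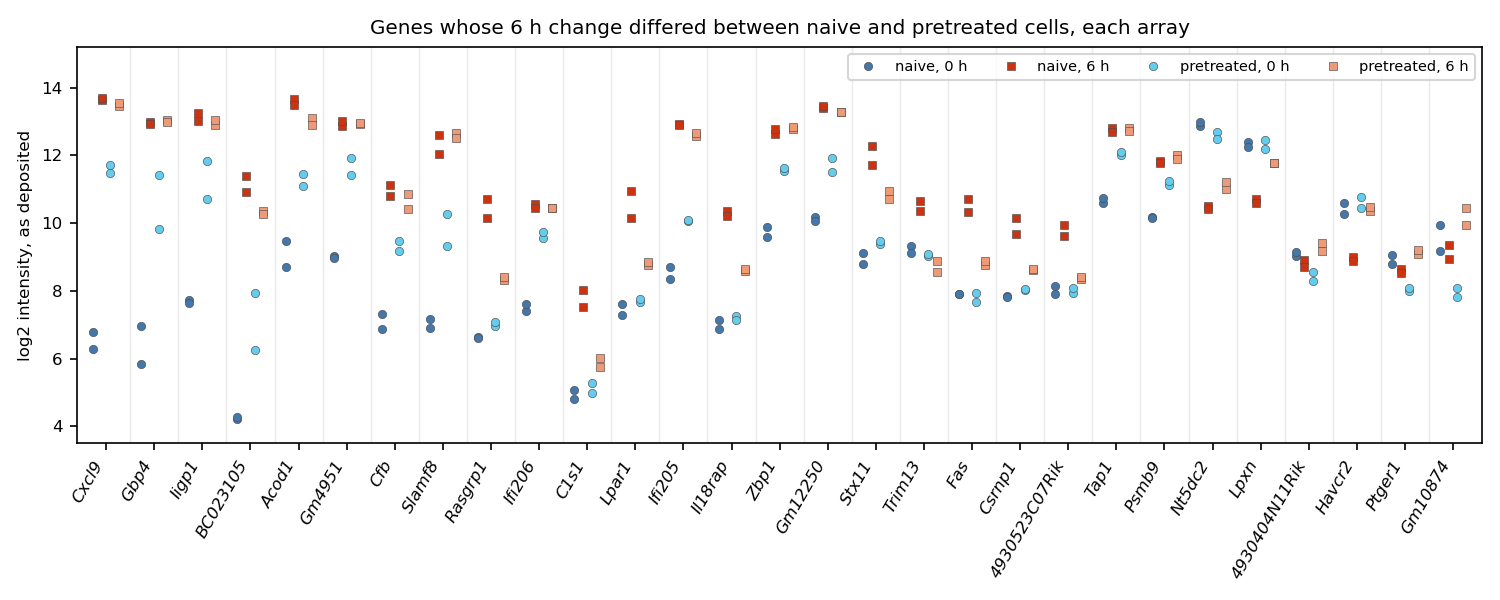
Log2 intensity on each array of the genes whose 6 h change differed between naive and pretreated cells at a limma adjusted p under 0.05, with 2 points for each of naive 0 h, naive 6 h, pretreated 0 h and pretreated 6 h. For 19 of the 23 genes that rose more in naive cells the pretreated 0 h points lie above the naive 0 h points. The genes were picked for the larger naive rise on these same arrays, which favours this order.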

How the data were processed

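RNA of 16 macrophage samples was measured on Affymetrix mouse gene arrays. The log2 values are those the authors deposited. How they were background corrected, summarised and normalized is not given in the sources used here, nor is the genome build. Of 35557 features, the 21789 with 1 gene symbol in the platform annotation gave 19938 genes, each read from its feature with the highest mean. Features with several symbols (1621) or none (12147) were not named.

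Groups came from the sample labels, and array sets and half-sets from array numbers in the titles. A linear model with 8 group means over all 16 arrays was fitted with limma 3.58.1 in R 4.3.3 (lmFit, eBayes), with contrasts within a set. The Benjamini-Hochberg adjustment ran over 19938 genes, with a threshold of 0.05. The model left 8 residual degrees of freedom. The fitting script was tested on simulated data.

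The comparison and the 47 gene lists (1325 genes, 1168 measured) were chosen with earlier results of these data known. Named genes were drawn from the 20 largest rises and falls with arrays that did not overlap, and up to 5 called members of each list by size. Others came from the 15 largest differences of responses in each direction, runs of neighbours, and list members that define a pathway step. The last were picked with their values in view, as were genes shown for their promoter. Not all genes of these sets are named above. Among those left out are the falls of Lhfpl2, Ssh2 and Arrdc3 and the rises of BC023105, Cnn3 and Cd69. The named genes are thus not a full account of the largest changes. Start-site windows came from RefSeq, and 15614 of the 19938 genes had one. Alternatives were other scalings, gene summaries, filters, array weights, sample sets, a half-set block and leaving out each array.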

Additional observations from a re-analysis of the deposited data

Results flagged for a closer look

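The 6 h response of naive cells differed from their 3 h response, by limma's test of the difference, in 136 genes that were higher and 209 that were lower at 6 h. Differences above 0 were 4.6 for Ak4, 2.39 for Rasgrp1, 2.28 for Cfb, 1.86 for Pfkp and 1.60 for Ptges. Differences below 0 were -3.69 for Slc40a1, -2.25 for Plk1, -1.60 for Il17ra and -1.51 for Idh1. Time and array set cannot be told apart in these values.

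The 6 h response also differed between naive and pretreated cells by the same kind of test, in 23 genes that were higher and 6 that were lower in naive cells. The difference was 5.22 for Cxcl9, 3.78 for Iigp1 and 2.47 for Rasgrp1.

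Signal outside the named genes was also seen. Of 1621 features that list several gene symbols, 135 passed the limma threshold at 6 h (8.33%), 72 of them higher. Of 12147 features with no symbol in the annotation, 765 passed (6.3%), 516 of them higher. No feature of either kind was assigned to a gene.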

How the results depend on the processing

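The count of 3653 genes changed at 6 h was 1310 with a log2 change of at least 1 required as well, and 2217 to 2981 with 1 array left out. Of the 3653 genes, 2538 (69.5%) kept their call in each of the other alternatives counted, and all kept their direction. That tally leaves out the filter for genes with a low mean, the fit over all features and the limit on the size of the change. The filter left 3554 of the 3653 genes, and all of those kept their call. Quantile scaling and median centring moved the median of all genes to -0.04 and -0.03. The 345 genes whose change differed between 6 h and 3 h became 204 over all features, 751 with array weights, 160 with the naive arrays alone and 63 to 447 with 1 array left out. The 29 genes that differed between naive and pretreated cells (23 higher, 6 lower) became 47 over all features (29 and 18), 14 with array set 1 alone and 4 to 157 with 1 array left out. The cause of these shifts was not tested.

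With the half-set as a replicate block, 4832 genes changed at 6 h (1960 up, 2872 down), 1252 differed between 6 h and 3 h, an alternative chosen after seeing the data, and 302 differed between naive and pretreated cells, 141 higher and 161 lower in naive cells. Under this block 6 of the 10 class II genes and 9 standard proteasome genes rose, and 6 chemokine and 10 macrophage identity genes fell. The differences between half-sets at 0 h and 6 h in naive cells correlated at 0.493 over genes. Arrays of a half-set thus shared part of their deviations. The labels do not say that a half-set marks a shared culture or day, and what lies behind the correlation was not tested.

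With 2 arrays a group, 4 arrays decide each change, and markers of absent cell types reached 7.86 at 0 h, so levels up to there do not show expression.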
